A study of Mus musculus with 7 samples.

Results

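The genes described here mark 3 small lineages of granulocytes: eosinophils, basophils and mast cells. They are *Prg2*, *Prg3* and *Epx* of eosinophils, *Mcpt8* and *Prss34* of basophils, and *Fcer1a*, *Ms4a2*, *Cpa3*, *Hdc* and *Slc18a2*, which basophils and mast cells share. The 10 genes were taken by symbol from the 25033 gene symbols that the files list, all 10 were found, and all 10 passed the filter on low counts, with at least 58 reads in every mouse. They were chosen by their levels in these same 7 mice, wild type against knockout, with the question which of the 3 lineages carries a lower level in the knockout. The differences between the genotypes are therefore given for them as a description, without a test.

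RNA was taken from lineage depleted (lin-) bone marrow cells of 3 *HRP-2* wild type (WT, *HRP-2*+/+) and 4 *HRP-2* knockout (KO, *HRP-2*-/-) mice. The knockout is the systemic tm1b allele of *Hdgfrp2*, listed in the files as *Hdgfl2*, on C57BL/6N, so every cell of the mouse lacks the gene and an effect within a lineage cannot be told apart from one of its surroundings. The marrow came from the femur and tibia of mice aged 6 to 8 weeks, red blood cells were lysed, and cells with markers of mature lineages were removed with a kit. The labels give neither sex nor litter, and the replicate numbers name different animals.

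The libraries held between 3525665 and 5605158 reads on genes, of which the ribosomal RNA precursor *Rn45s* took from 4.94% to 20.6%. Levels are given in CPM, the reads of a gene per 1000000 reads after scaling each library with the TMM factors of edgeR. *Hdgfl2* stood at 46.1 ± 3.42 CPM (SD, n = 3) in WT and 1.29 ± 0.938 CPM (SD, n = 4) in KO mice. KO replicate 3 stood apart, with *Xist* at 0.561 CPM where the other 6 mice had 229 to 303 CPM, and *Ddx3y* at 104 CPM where they had at most 0.777 CPM. *Xist* is a gene expressed in females, and *Ddx3y* lies on the Y chromosome. KO replicate 3 thus had the levels of a male and the other 6 mice those of females. By these genes sex was mixed among the KO mice alone, and its part in the levels was not tested. KO replicate 3 also held the most late neutrophil reads, and KO replicate 4 the most megakaryocyte and platelet reads. The fold changes were also computed without each mouse in turn.

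Eosinophils, basophils and mast cells arise in the bone marrow from myeloid progenitors that express GATA factors, and each fills its granules with proteins that it makes early, while still a precursor. Eosinophil granules carry a major basic protein and a peroxidase. Basophils and mast cells carry proteases and histamine, and display the high-affinity receptor for IgE, through which an allergen makes them release their granules. Basophils leave the marrow mature, whereas mast cell precursors leave it immature and make most of their proteases in the tissues.

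Because GATA factors act in these lineages, the promoters in RefSeq (GRCm38.p6, 250 bases before to 50 bases after the annotated start) were searched on both strands for the GATA motif, which is GATA with A or T before it and A or G after it. The table held promoters of 9 members; *Prg2* had no entry. At least 1 match was found in 7 of the 9, and in 29.8% of all 32851 promoters of this length. *Ms4a2* had 3 matches and *Slc18a2* had 2, and 7.77% of all promoters had at least 2. *Epx* and *Mcpt8* had none. A C/EBP motif, TTGCNNAA, which shares no letters with a GATA match here, was found in 1 of the 9, *Fcer1a*, and in 10.8% of all promoters. Shown are the promoters of the 3 members with the lowest levels in KO relative to WT mice and of *Hdc*, the 1 member whose mean level was higher, 5′ to 3′ on the strand of the gene, with GATA matches in capitals.
Prg3 (chr2:84987965-84988264, + strand): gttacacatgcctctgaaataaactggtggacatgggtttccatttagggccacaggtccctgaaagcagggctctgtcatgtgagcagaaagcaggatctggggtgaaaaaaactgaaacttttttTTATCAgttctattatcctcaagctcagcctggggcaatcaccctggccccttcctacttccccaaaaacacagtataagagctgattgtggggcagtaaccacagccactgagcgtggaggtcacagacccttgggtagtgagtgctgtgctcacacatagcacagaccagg
Epx (chr11:87875487-87875786, - strand): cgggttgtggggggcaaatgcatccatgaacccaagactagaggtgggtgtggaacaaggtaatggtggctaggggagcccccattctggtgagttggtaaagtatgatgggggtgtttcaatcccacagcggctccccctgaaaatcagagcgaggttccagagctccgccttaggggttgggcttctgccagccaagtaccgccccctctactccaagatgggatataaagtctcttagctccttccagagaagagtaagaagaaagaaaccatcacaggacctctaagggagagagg
Slc18a2 (chr19:59260628-59260927, + strand): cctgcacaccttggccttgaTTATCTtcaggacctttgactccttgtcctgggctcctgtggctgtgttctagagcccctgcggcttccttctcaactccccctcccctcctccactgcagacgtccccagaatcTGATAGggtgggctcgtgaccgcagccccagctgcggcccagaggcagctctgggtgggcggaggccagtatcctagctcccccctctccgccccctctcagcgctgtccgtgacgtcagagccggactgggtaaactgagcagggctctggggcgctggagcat
Hdc (chr2:126618629-126618928, - strand): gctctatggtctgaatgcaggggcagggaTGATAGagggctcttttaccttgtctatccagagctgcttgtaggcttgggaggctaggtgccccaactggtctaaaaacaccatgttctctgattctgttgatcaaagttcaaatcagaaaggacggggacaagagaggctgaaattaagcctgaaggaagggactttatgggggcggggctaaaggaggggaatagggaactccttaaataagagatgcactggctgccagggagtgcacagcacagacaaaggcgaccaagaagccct
The match began 123 bases before the RefSeq start of *Prg3* and 221 bases before that of *Hdc*, which lies inside the gene as GENCODE M21 draws it, so the window shown for *Hdc* does not reach the GENCODE start. In *Slc18a2* the matches began 230 and 115 bases before the start.

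All 3 eosinophil members were lower in KO mice, and in none of them did the genotypes overlap in CPM. Of the 11265 genes tested, 50.2% had a lower level in KO, and in 2.79% every KO mouse lay below every WT mouse; since the members were chosen by this contrast, nothing is read from their count. *Prg2* encodes the major basic protein, the most abundant protein of eosinophil granules. It lies on chromosome 2 of GRCm38 from 84980461 to 84983632, a protein-coding gene of 6 exons in the GENCODE M21 annotation. *Prg2* stood at 1171, 1103 and 1291 CPM in WT replicates 1 to 3, and at 953, 902, 913 and 883 CPM in KO replicates 1 to 4. The KO mice lay within a narrow band under the lowest WT mouse, with a coefficient of variation of 3.23%. With the library total alone as the scale, the coefficient was 10.2% and KO replicate 1, at 1032 reads per 1000000, lay above WT replicate 2, at 1012. The mean level in KO was 76.8% of that in WT, a log2 fold change of −0.38 (standard error 0.12).

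*Prg3*, the paralog of *Prg2* that encodes a second form of major basic protein, begins 4582 bases beyond the end of *Prg2* on the same strand, from 84988215 to 84993886. Its level was 32.7, 24.6 and 34.0 CPM in WT and 21.2, 13.5, 10.8 and 19.4 CPM in KO replicates 1 to 4. The KO level was 53.3% of the WT level, the lowest share among the 10 members, with a log2 fold change of −0.91 (standard error 0.25). KO replicate 3, with 58 reads, was the lowest, and KO replicate 1 the highest of the KO mice.

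*Epx*, which encodes eosinophil peroxidase, lies on chromosome 11 from 87864000 to 87875536. It stood at 29.4, 34.4 and 26.6 CPM in WT and at 22.9, 13.9, 17.6 and 19.9 CPM in KO mice, a log2 fold change of −0.70 (standard error 0.22). As for *Prg2* and *Prg3*, KO replicate 1 was the highest KO mouse and still lay below the lowest WT mouse.

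The eosinophil members differed in level by far more than they differed between genotypes. Each library yields about 1 fragment near the 3′ end of a transcript, so CPM does not grow with the length of the gene. Levels of different genes are set side by side on that basis alone. Other differences between genes in how reads are captured and counted were not tested. In WT mice *Prg2* stood at 1188 ± 95.1 CPM (SD, n = 3), *Prg3* at 30.4 ± 5.07 CPM and *Epx* at 30.1 ± 3.99 CPM. *Prg2* thus made up nearly all reads of the eosinophil members. Inside a mouse, there were 2.55 ± 0.288 *Prg3* reads per 100 *Prg2* reads (SD, n = 3) in WT and 1.78 ± 0.518 (SD, n = 4) in KO. The WT ratios were 2.79, 2.23 and 2.63, and the KO ratios 2.22, 1.50, 1.19 and 2.20, so that the highest KO ratio lay just under the lowest WT ratio. For *Epx* the ratios to *Prg2* overlapped, at 2.56 ± 0.534 in WT (SD, n = 3) and 2.03 ± 0.384 in KO (SD, n = 4).

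**Figure D1:**
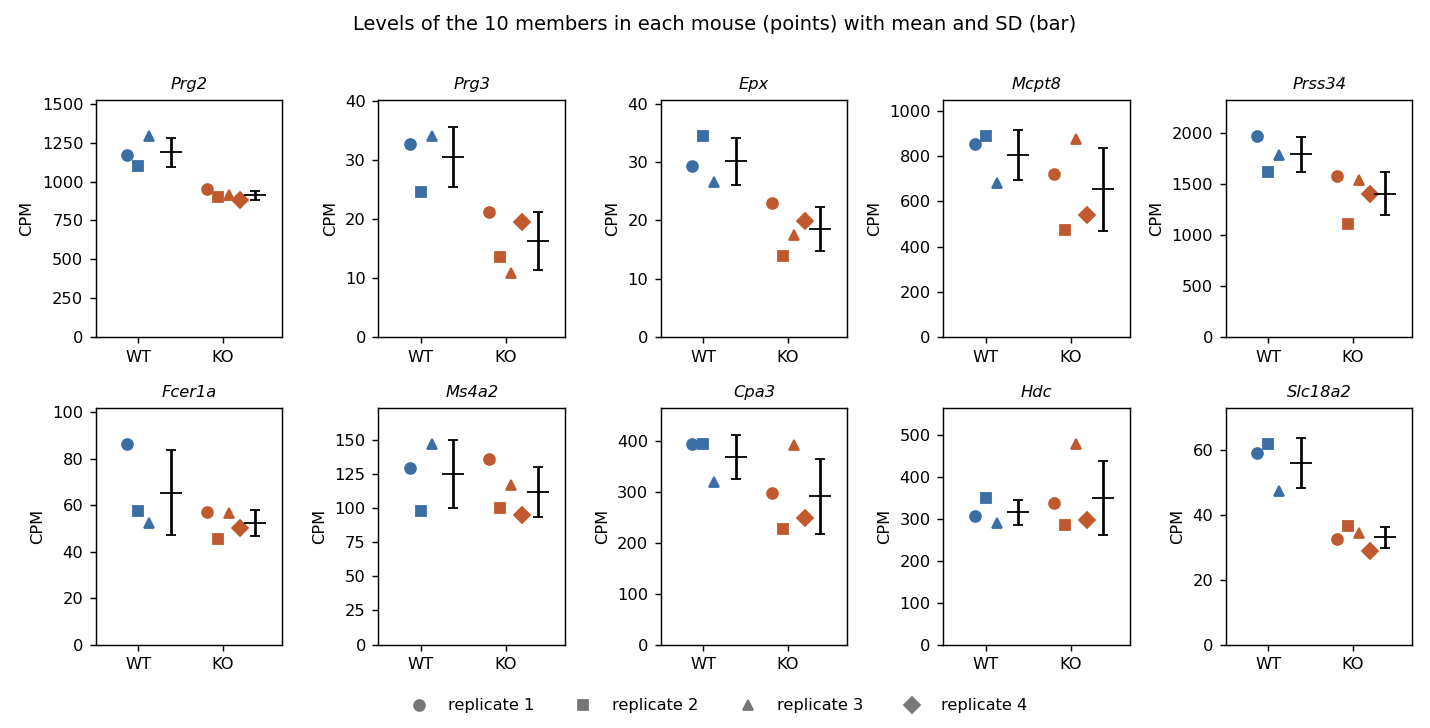
Levels of the 10 members in CPM (vertical axis, from 0) in each WT (blue) and KO (orange) mouse; a point is a mouse, its shape the replicate number, and the bar gives the mean and SD. The genotypes separate for *Prg2*, *Prg3*, *Epx*, *Prss34* and *Slc18a2*, and KO replicate 3 is the highest mouse for *Hdc*.

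The basophil proteases were the most highly expressed members together with *Prg2*, and were lower in KO by about as much as *Prg2*. *Prss34* encodes mouse mast cell protease 11, a serine protease which despite that name is made chiefly by basophils. It lies on chromosome 17 from 25298394 to 25300165. Its level was 1962, 1616 and 1778 CPM in WT and 1573, 1103, 1534 and 1402 CPM in KO mice, with a log2 fold change of −0.35 (standard error 0.14). All KO mice were below all WT mice, but KO replicate 1 lay close to WT replicate 2.

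*Mcpt8*, mast cell protease 8, is the protease gene most used to mark mouse basophils, and lies on chromosome 14 from 56082166 to 56085273. It stood at 852, 888 and 681 CPM in WT and at 721, 474, 877 and 539.9 CPM in KO mice (log2 fold change −0.30, standard error 0.18). The genotypes overlapped, since KO replicates 1 and 3 lay above WT replicate 3. The ratio of *Mcpt8* to *Prss34* reads was 45.5% ± 8.52 (SD, n = 3) in WT and 46.1% ± 7.96 (SD, n = 4) in KO, a difference well within the spread between mice.

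Of the genes that basophils and mast cells share, *Slc18a2* differed most between genotypes. *Slc18a2* encodes the vesicular monoamine transporter VMAT2, which loads histamine and serotonin into granules and which platelets also carry. It lies on chromosome 19 from 59260896 to 59296012, with an antisense gene, *Gm29261*, on the other strand, whose reads could not be told apart if strand was not used in counting. Its level was 59.0, 61.9 and 47.3 CPM in WT and 32.5, 36.6, 34.4 and 28.9 CPM in KO mice. The highest KO mouse lay well below the lowest WT mouse. The KO level was 59.0% of the WT level, with a log2 fold change of −0.76 (standard error 0.18). KO replicate 4 had the lowest level of *Slc18a2* and by far the highest summed level of megakaryocyte and platelet genes, 893 CPM, where the other 6 mice had 105 to 371 CPM.

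*Hdc*, which encodes histidine decarboxylase, the enzyme that makes histamine, was the 1 member whose mean level was higher in KO mice. It lies on chromosome 2 from 126593667 to 126619299. Its level was 307, 349 and 291 CPM in WT and 338, 286, 479 and 297 CPM in KO mice, with a log2 fold change of 0.15 (standard error 0.17). The genotypes overlapped, and KO replicate 3 stood above all other mice. Without KO replicate 3 the log2 fold change was −0.04, so the direction rested on that mouse. Immature neutrophils are also known to express *Hdc*, and the summed level of 8 late neutrophil genes was 24777 CPM in KO replicate 3, while the other 6 mice had 7894 to 15691 CPM. Whether those cells contributed was not tested.

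*Cpa3* encodes carboxypeptidase A3, a protease of mast cell and basophil granules that early blood progenitors express as well. It lies on chromosome 3 from 20215620 to 20242181. It stood at 395, 395 and 319 CPM in WT and at 298, 227, 392 and 249 CPM in KO mice (log2 fold change −0.34, standard error 0.17). KO replicates 1, 2 and 4 lay below all WT mice, and KO replicate 3 lay among them.

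The pair *Hdc* and *Cpa3* separated the genotypes inside each mouse, where scaling between libraries plays no part. There were 77.8, 88.4 and 91.2 *Hdc* reads per 100 *Cpa3* reads in WT and 113, 126, 122 and 119.5 in KO replicates 1 to 4. WT mice thus had fewer *Hdc* than *Cpa3* reads and KO mice more, in each of the 7 mice, KO replicate 3 included. For *Slc18a2*, the transporter of the product of *Hdc*, there were 17.7 ± 1.48 reads per 100 *Hdc* reads in WT (SD, n = 3) and 9.82 ± 2.30 in KO (SD, n = 4), again without overlap. The ratio of *Slc18a2* to *Cpa3* overlapped, at 15.1% ± 0.459 in WT (SD, n = 3) and 11.8% ± 3.09 in KO (SD, n = 4). These pairs were chosen after the levels of the members had been seen.

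The IgE receptor members were lower in KO on average, with overlap between the genotypes. *Fcer1a* encodes the alpha chain that binds IgE and lies on chromosome 1 from 173221284 to 173227214. Its level was 86.4, 57.4 and 52.3 CPM in WT and 57.1, 45.3, 56.6 and 50.1 CPM in KO mice (log2 fold change −0.33, standard error 0.19). The difference rested largely on WT replicate 1: without it the log2 fold change was −0.06. *Ms4a2* encodes the beta chain, which amplifies the signal of the receptor, and lies on chromosome 19 from 11615523 to 11623719. It stood at 129, 98.0 and 147 CPM in WT and at 136, 100.2, 117 and 95.2 CPM in KO mice (log2 fold change −0.16, standard error 0.16), and the ranges of the genotypes overlapped widely. *Fcer1g*, the gamma chain shared with other Fc receptors and no member, stood at 298 ± 62.1 CPM in WT (SD, n = 3) and 311 ± 53.5 CPM in KO mice (SD, n = 4; adjusted p = 0.999, edgeR).

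Over the 10 members, 9 were lower and 1 higher in KO mice, and 50.2% of all genes tested were lower. The median log2 fold change was −0.34 over the members and −0.0014 over all genes tested. In 5 members, *Prg2*, *Prg3*, *Epx*, *Prss34* and *Slc18a2*, every KO mouse lay below every WT mouse. With the library total alone as the scale, in place of the TMM factors, the 5 became 2, *Epx* and *Slc18a2*. In CPM, 2.79% of all genes tested had every KO mouse below every WT mouse. The members were chosen by this contrast, so nothing is read from these counts. An adjusted p-value under 0.25, the threshold of the study, was reached in the edgeR test by 2 genes, 0.0178% of all genes tested.

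**Figure D2:**
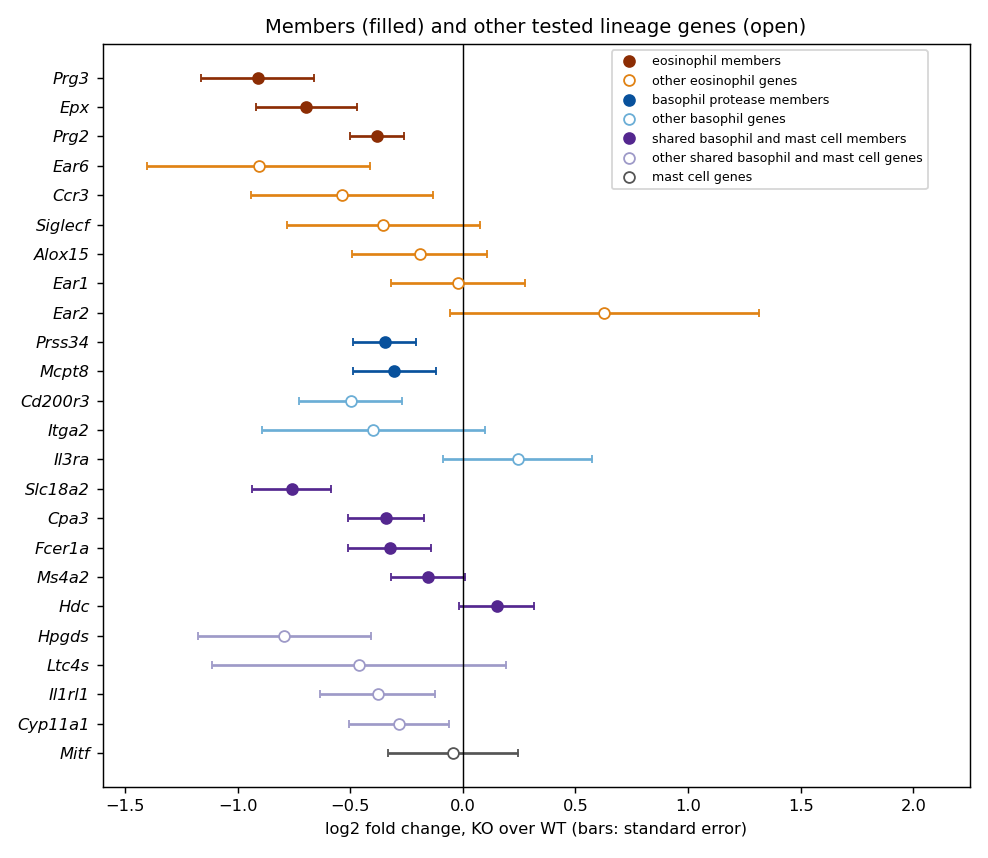
Log2 fold change of KO over WT (horizontal axis) with its standard error (bars) for the members (filled) and the other lineage genes that passed the filter on low counts (open), coloured by list. Among the members *Hdc* alone lies to the right of 0 with all mice included, and the fold changes of *Prg3*, *Slc18a2* and *Epx* lie furthest to the left.

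Which lineage carried the difference was described by the summed CPM of its members. The eosinophil members summed to 1233, 1162 and 1351 CPM in WT and to 997, 929.5, 942 and 922 CPM in KO mice, so that the KO mean was 75.9% of the WT mean. Nearly all of this sum was *Prg2*, with a WT mean of 1188 CPM where that of the sum was 1249 CPM. The basophil proteases summed to 2814, 2504 and 2459 CPM in WT and to 2294, 1577, 2411 and 1942 CPM in KO mice, a KO mean of 79.3% of WT. The shared members summed to 977, 962 and 857 CPM in WT and to 862, 695, 1079 and 720.1 CPM in KO mice, a KO mean of 90.1% of WT. Neither the eosinophil sums nor the basophil protease sums overlapped between genotypes, and the shared sums did. This separation rested on the TMM factors: with the library total alone as the scale, KO replicate 1 lay above WT replicate 2 in the eosinophil sum, at 1080.3 and 1066 reads per 1000000, and in the basophil protease sum, at 2486 and 2297, so that all 3 sums overlapped. The KO means were then 75.8%, 79.3% and 90.2% of the WT means.

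The eosinophil and basophil protease sums in KO stood at like shares of their WT levels. Per 100 reads of the basophil proteases there were 43.8, 46.4 and 55.0 reads of the eosinophil members in WT and 43.4, 58.9, 39.1 and 47.5 in KO replicates 1 to 4. The KO mice lay on both sides of the WT range. Leaving out *Hdc*, a choice made because its mean was seen to be higher in KO, the KO mean of the shared sum was 79.4% of WT, still with overlap, which is a description only. The median log2 fold change was −0.70 for the 3 eosinophil members, −0.33 for the 2 basophil proteases and −0.33 for the 5 shared members. The eosinophil median is further from 0 than the difference of the sums, since *Prg3* and *Epx*, with few reads, differed more than *Prg2*. Without WT replicate 1 the median of the shared members was −0.12. In bulk RNA, fewer cells of a type and less RNA per cell cannot be told apart.

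The KO mice differed in the manner in which they were low. The summed level of the eosinophil members varied by 3.57% (coefficient of variation) among the 4 KO mice, and that of the basophil proteases by 18.3%. With the library total alone as the scale these values were 10.4% and 19.5%. KO replicate 2 was the lowest KO mouse in 5 of the 7 basophil and mast cell members: *Mcpt8*, *Prss34*, *Fcer1a*, *Cpa3* and *Hdc*. It was also the lowest in 5 of 7 further basophil and shared genes that are no members. Among eosinophil genes it was the lowest KO mouse for 1 of the 3 members, *Epx*, and for 3 of 6 other genes tested. KO replicate 3 was the highest KO mouse for *Mcpt8*, *Cpa3* and *Hdc*, but the lowest for *Prg3*. In KO replicate 2 the median basophil and mast cell member stood at 65.2% of its WT mean, and in KO replicate 3 at 93.5%. The other 2 KO mice lay between, at 88.1% and 76.3% for KO replicates 1 and 4. The median eosinophil member stood at 76.1%, 46.2%, 58.3% and 66.1% of its WT mean in KO replicates 1 to 4. Values of single mice relative to the WT mean are in CPM and thus also rest on the TMM factors.

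**Figure D3:**
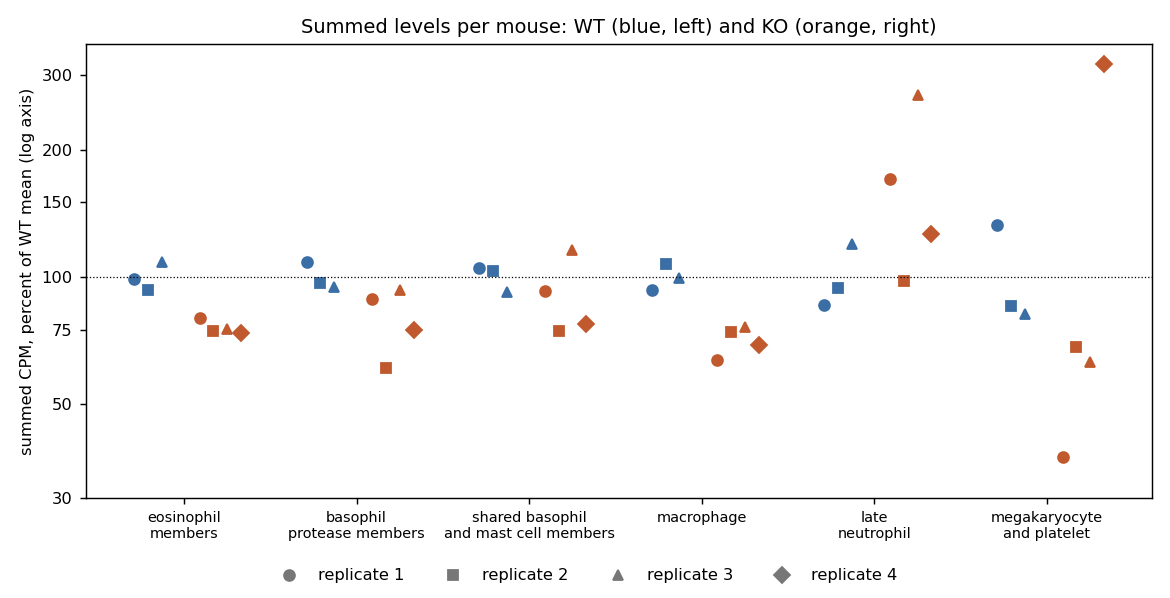
Summed CPM of each group of members and of marker lists of 3 other cell types, as a percentage of the WT mean (vertical log axis), in WT (blue) and KO (orange) mice; a point is a mouse and its shape the replicate number. The eosinophil sum, nearly all of it *Prg2*, lies between 922 and 997 CPM in the 4 KO mice. The basophil proteases spread from 1577 to 2411 CPM, and late neutrophil and megakaryocyte lists spread more.

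Genes that mark differentiated mast cells were at or near 0. Of 10 such genes, *Mcpt1*, *Mcpt4*, *Tph1* and *Mrgprb2* had no read in any of the 7 mice, which at these depths allows up to 0.561 to 0.840 CPM per library (a floor of 3 reads, which covers counting error only). *Cma1*, the mast cell chymase, had 20 reads over all mice and *Tpsb2*, a tryptase, 4. Without *Mitf*, the 9 other genes summed to 0.599 ± 0.182 CPM in WT (SD, n = 3) and 1.02 ± 0.802 CPM in KO mice (SD, n = 4). *Mitf*, a transcription factor of mast cells and of several other cells, stood at 11.9 ± 2.84 CPM in WT and 11.5 ± 1.82 CPM in KO mice (log2 fold change −0.04, adjusted p = 0.999, edgeR). *Cma1* lay above the floor in KO replicates 1 and 3, at 1.75 and 1.12 CPM. A difference in mast cells was not detectable at this depth.

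**Figure D4:**
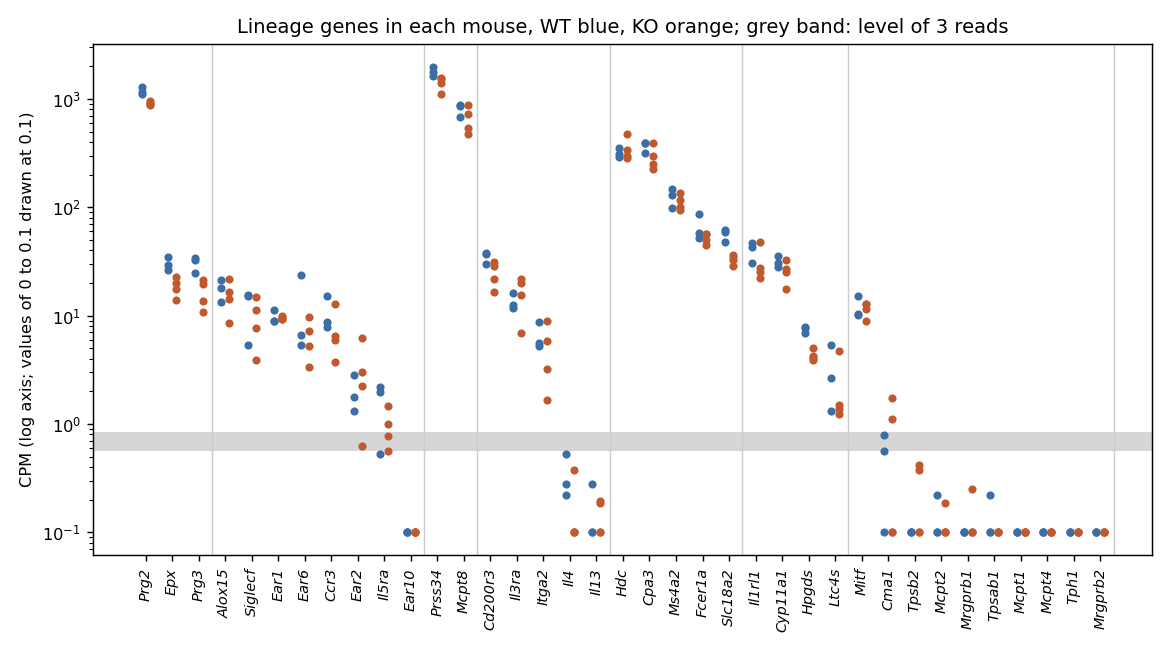
CPM (vertical log axis, values of 0 drawn at 0.1) of the members and other lineage genes in each WT (blue) and KO (orange) mouse, with thin lines between the lists: eosinophil members, other eosinophil genes, basophil proteases, other basophil genes, shared members, other shared genes and mast cell genes. Apart from *Mitf*, the mast cell genes lie at or about the level of 3 reads (grey band), 3 orders of magnitude below *Prss34*.

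The genes of the same lineages and pathways that are no members were tested in the fit across all genes. Of 59 that passed the filter on low counts, 40 were lower and 19 higher in KO mice, and 50.2% of all genes tested were lower. None had an adjusted p-value under 0.25 in the edgeR test or in DESeq2, and an unadjusted p-value under 0.05 was seen for 2 lower and 2 higher genes, where it was seen for 2.07% and 1.56% of all genes tested. Every KO mouse lay below every WT mouse for 2 of the 59, and above for 2. Of all genes tested, this was so for 2.79% and 2.37%.

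Eosinophil genes that are no members were expressed weakly. Of 8 listed, 6 passed the filter, of which 5 were lower and 1 higher in KO mice, and none passed the test. *Alox15*, a lipoxygenase, stood at 17.6 ± 3.97 CPM in WT (SD, n = 3) and 15.3 ± 5.53 CPM in KO mice (SD, n = 4), and *Siglecf*, the lectin that marks mature mouse eosinophils, at 11.9 ± 5.73 and 9.39 ± 4.66 CPM. The log2 fold change was −0.54 (standard error 0.40) for *Ccr3*, the eotaxin receptor. *Ear6*, an eosinophil-associated ribonuclease, had one of −0.91 (standard error 0.50), with 23.9 CPM in WT replicate 3 and between 3.36 and 9.72 CPM in every other mouse. Without WT replicate 3 its log2 fold change was 0.088, so the direction rested on that mouse. *Ear1* stood at 9.70 ± 1.26 and 9.55 ± 0.332 CPM. The ribonucleases are near-identical paralogs, between which reads may have been split. The summed level of the 8 genes was 57.0, 53.5 and 85.3 CPM in WT and 54.8, 46.1, 55.1 and 51.3 CPM in KO mice. The KO sums overlapped the WT sums.

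Of 9 further basophil and shared basophil and mast cell genes, 7 passed the filter and none passed the test. *Cd200r3*, an activating receptor of basophils and mast cells, stood at 34.7 ± 4.26 CPM in WT (SD, n = 3) and 24.6 ± 6.80 CPM in KO mice (SD, n = 4), which is a log2 fold change of −0.50 with a standard error of 0.23 (unadjusted p = 0.0421 and adjusted p = 0.999, edgeR). *Hpgds*, which makes prostaglandin D, stood at 7.48 ± 0.498 and 4.31 ± 0.471 CPM (log2 fold change −0.79, standard error 0.38, adjusted p = 0.999, edgeR), with all KO mice below all WT mice. *Il1rl1*, the receptor of interleukin 33, was at a log2 fold change of −0.38 (standard error 0.25), *Cyp11a1*, a steroid synthesis enzyme that basophils and mast cells express, one of −0.28 (standard error 0.22), and *Itga2*, an integrin, one of −0.40 (standard error 0.49). *Il3ra*, a receptor chain for the basophil growth factor interleukin 3, had one of 0.24 (standard error 0.33). Over the 14 lineage genes tested that are no members, 12 were lower and 2 higher, and 50.2% of all genes tested were lower. The median log2 fold change of the 14 was −0.37. Of these 14, only *Cd200r3* had an unadjusted p-value under 0.05. That these lists run lower in KO was known from earlier results when they were written.

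**Figure D5:**
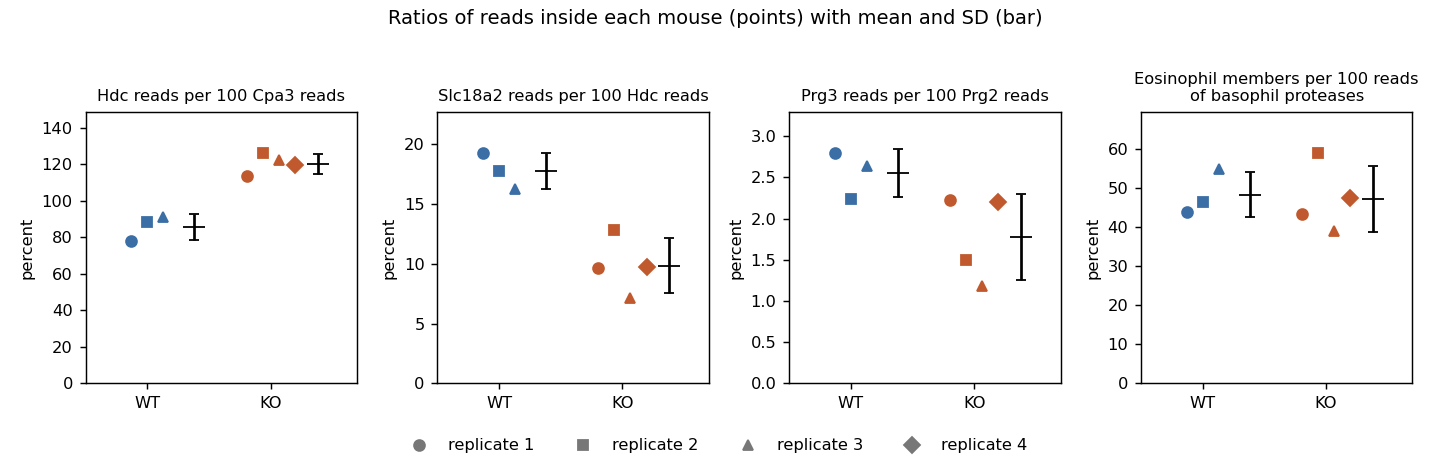
Ratios of reads inside each mouse, in percent (vertical axes, from 0), for WT (blue) and KO (orange) mice; points are mice and the bar gives the mean and SD. *Hdc* per *Cpa3* and *Slc18a2* per *Hdc* separate the genotypes, and the eosinophil members per basophil protease do not.

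The signalling genes below the IgE receptor were on both sides of 0. Of 15 tested, 7 were lower and 8 higher in KO mice, with a median log2 fold change of 0.03, and none passed the test. *Pik3cd* and *Lat2* had log2 fold changes of 0.10 (standard error 0.15) and 0.13 (standard error 0.15). Those with the smallest p-values were *Btk*, a kinase, at 0.30 (standard error 0.21), and *Fyn*, a kinase that acts with *Lyn* on the receptor, at −0.20 (standard error 0.16). Most of these genes serve many blood cells.

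Of 8 cytokine receptor genes tested, 6 were lower and 2 higher, and none passed the test. *Il18r1*, a chain of the interleukin 18 receptor, stood at 40.4, 47.0 and 41.2 CPM in WT and at 31.5, 17.2, 28.4 and 20.7 CPM in KO mice, without overlap (log2 fold change −0.80, standard error 0.22, adjusted p = 0.811, edgeR). Without a filter on low counts it passed the threshold (adjusted p = 0.109, edgeR). *Csf2ra*, the alpha chain of the GM-CSF receptor, was above the WT range in each KO mouse, at 26.1 ± 2.72 CPM in WT (SD, n = 3) and 35.1 ± 5.22 CPM in KO mice (SD, n = 4; adjusted p = 0.999, edgeR). *Csf2rb*, which serves the receptors of interleukin 3, interleukin 5 and GM-CSF, was at a log2 fold change of −0.02 (standard error 0.16), with reads possibly split with its paralog *Csf2rb2*. *Kit*, the receptor on which mast cells depend, had one of −0.23 (standard error 0.14), and *Crlf2* one of −0.03 (standard error 0.16). *Il5ra*, the receptor chain that marks committed eosinophil progenitors, had 37 reads over all mice and was not tested.

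Of 17 transcription factor genes of these lineages, 13 were lower and 4 higher, and none passed the test. *Gata1*, on which the eosinophil lineage depends, stood at 11.8, 21.6 and 21.5 CPM in WT and at 15.9, 8.31, 9.72 and 17.2 CPM in KO mice (log2 fold change −0.52, standard error 0.31, adjusted p = 0.999, edgeR). The genotypes overlapped, since WT replicate 1 lay within the KO range. *Trib1*, a pseudokinase that lowers C/EBP alpha protein, listed here for its part in eosinophil identity, stood at 126 ± 26.5 CPM in WT (SD, n = 3) and 179 ± 20.3 CPM in KO mice (SD, n = 4), which is a log2 fold change of 0.51 with a standard error of 0.16 (unadjusted p = 0.00453 and adjusted p = 0.999, edgeR). *Irf8*, *Ikzf1* and *Xbp1* had log2 fold changes of −0.01, 0.04 and −0.23. Of 11 genes of histamine, serotonin, heparin and eicosanoid handling, 7 were lower and 4 higher. *Srgn*, the core protein of granule proteoglycans, *Alox5ap*, which presents substrate to the 5-lipoxygenase, and *Ndst2*, of heparin synthesis, had log2 fold changes of −0.03, 0.07 and −0.10. *Ptgs1*, a cyclooxygenase, had one of 0.32 (standard error 0.22).

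Summed levels of markers of other cell types are given beside those of the members. The summed level of 8 macrophage genes was 388 ± 27.3 CPM in WT (SD, n = 3) and 275 ± 22.1 CPM in KO mice (SD, n = 4), with 8 of 8 genes lower and no overlap between the sums; none of the 8 had an adjusted p-value under 0.25 in the edgeR test and 1 had in DESeq2, and 6 had an unadjusted p-value under 0.05 in edgeR. The 8 lymphoid genes summed to 242, 311 and 322 CPM in WT and to 246, 173, 152 and 269 CPM in KO mice, a KO mean of 71.9% of WT with overlap between the genotypes; 6 of the 8 were lower, 2 had an unadjusted p-value under 0.05, and an adjusted p-value under 0.25 was reached by none in edgeR and by 1 in DESeq2. *Dntt*, the DNA polymerase of early lymphoid cells, was lower in every KO than in every WT mouse, at 177 ± 6.25 CPM in WT (SD, n = 3) and 106 ± 27.9 CPM in KO mice (SD, n = 4; unadjusted p = 0.000469 and adjusted p = 0.544, edgeR). The 8 stem and progenitor genes summed to 616 ± 67.1 CPM in WT (SD, n = 3) and 569 ± 54.8 CPM in KO mice (SD, n = 4), with overlap. The 8 late neutrophil genes each had a log2 fold change above 0, without passing the test, and summed to between 7894 and 11006 CPM in WT and between 8987 and 24777 CPM in KO mice, with overlap. The 5 genes of neutrophil primary granules, which precursors make at a like stage, summed to 8979 ± 1248 CPM in WT (SD, n = 3) and 9144 ± 1339 CPM in KO mice (SD, n = 4). The 9 erythroid genes, which like eosinophils and mast cells depend on GATA1, summed to 226 ± 71.2 and 179 ± 109 CPM, with *Hbb-bt* and *Hba-a1* at 0. Per 100 reads of *Mpo*, there were 22.1 ± 4.39 reads of the eosinophil members in WT (SD, n = 3) and 16.4 ± 3.10 in KO mice (SD, n = 4), with overlap between the genotypes. The part of these other cells in the levels of the members was not tested.

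The order of the members by level was the same in both genotypes at the top. In WT mice *Prss34*, *Prg2* and *Mcpt8* stood at ranks 36, 66 and 109 among all gene symbols, at 1786, 1188 and 807 CPM, and the ranges of neighbours did not overlap. *Cpa3* and *Hdc* followed, and their ranges overlapped, as did those of *Fcer1a* and *Slc18a2* and those of *Prg3* and *Epx* at the bottom. Together the 10 members took 0.510%, 0.424% and 0.498% of the reads on genes in WT and 0.449%, 0.334%, 0.423% and 0.330% in KO replicates 1 to 4. *Prss34* alone gave 37.4% ± 2.16 of the members' reads in WT (SD, n = 3) and 36.5% ± 2.35 in KO mice (SD, n = 4), and *Hdc* 6.63% ± 0.791 and 9.05% ± 1.23.

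After the mean of each genotype was removed, the genes whose level over the 7 mice ran most like that of the eosinophil sum were *Tardbp*, *Dhrsx* and *Prpf19* (Pearson r from 0.976 to 0.987), of 8505 genes compared. For the sum of the other 7 members they were *Suv39h1*, *Rnf44* and *Ing1* (r from 0.976 to 0.985). These are the highest of many correlations over few mice that share the same libraries, and are given as a description.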

How the data were processed

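The authors made 3′ end mRNA libraries from 500 ng of total RNA per mouse and sequenced them as single reads. Per the methods and the submitters' processing notes, reads were aligned to GRCm38 with STAR, which also gave the gene counts, and genes were compared with DESeq2. The deposited values are raw counts of reads for each gene symbol. The 5 tally rows of each file, among them reads on no gene (27.0% to 31.6% of a library), were left out. The tally rows bear names that another counting program uses, so which one made the files is uncertain. The strand setting is not given in the sources used here, so overlapping, antisense and near-identical genes are uncertain.

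Genotypes were compared with edgeR 4.0.16 (R 4.3.3): TMM scaling, 11265 genes kept by filterByExpr, a robust quasi-likelihood fit on genotype alone, and Benjamini-Hochberg adjustment over every gene kept, with a threshold of 0.25. The procedure was tested on simulated data. Standard errors were derived from the F statistic and the fold change. Gene positions were read from GENCODE M21 (GRCm38), where 97.6% of the symbols were found, and promoters from RefSeq.

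The members and gene lists were chosen with earlier results of these data known. Named genes are the members, *Hdgfl2*, and in each list of lineage or pathway genes the 3 of the highest mean CPM and the 2 of the smallest p-value. For the genes of like pattern, log2(CPM + 1) was centred on each genotype's mean, over genes with a mean of at least 10 CPM. *Lyn*, *Csf2rb2*, *Il5ra*, *Mcpt1*, *Mcpt4*, *Tph1*, *Mrgprb2*, *Hbb-bt*, *Hba-a1*, *Mpo*, *Xist*, *Ddx3y*, *Dntt*, *Gm29261* and the ratios of reads were named after their values were seen. No 2 libraries of one genotype were as alike as sampling noise alone would make them. Nothing in the labels ties the mice to litters or days, so p-values measure the spread between these mice. Alternatives were DESeq2 1.42.0, other scaling and filters, the replicate number as a block, *Rn45s* left out and each mouse left out; added after the data had been seen was a fit without the WT and the KO mouse with the highest *Rn45s* share.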

Additional observations from a re-analysis of the deposited data

Results flagged for a closer look

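Among 66 levels tested for a KO mouse far from the other 3, 2 stood out by the ratio of the gap to the range, where chance gives about 1 in 20, or 3.3. The summed level of megakaryocyte and platelet genes was 893 CPM in KO replicate 4, against 104.6 to 190.6 CPM in the remaining KO mice. The summed level of genes of histamine, serotonin, heparin and eicosanoid handling was 1355 CPM in KO replicate 2, against 1248 to 1249.5 CPM in the remaining KO mice. No member was among them.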

How the results depend on the processing

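*Hdgfl2* stayed past the threshold and lower in KO in 14 alternatives, with log2 fold changes from −5.62 to −4.86. The median log2 fold changes of the eosinophil members and the basophil proteases moved by less than the spread between mice in 15 alternatives, over −0.81 to −0.58 and −0.44 to −0.21. That of the shared members ran from −0.44 to −0.12 when 1 mouse was left out, and moved by more than the spread without WT replicate 1 alone. Leaving out 1 mouse gave from 9 to 10 lower members, and the other alternatives 9. Of 150 values of single members under alternatives, 149 moved by less than the spread and 1 changed sign, that of *Hdc* at −0.040 without KO replicate 3; over all mice left out in turn *Hdc* ran from −0.040 to 0.23. The number of members without overlap between genotypes was 5, and ran from 5 to 7 when 1 mouse was left out. It was 2 with the library total alone as the scale, under which the eosinophil and basophil protease sums also overlapped.

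The number of genes past an adjusted p-value of 0.25, against 2 in the reported fit, was 19 with DESeq2, 41 without a filter on low counts, 1 with at least 10 reads in every mouse, and from 2 to 7 when 1 mouse was left out, 4 without KO replicate 1 and 7 without WT replicate 1. With the replicate number as a block it was 1; the deviations of mice that share a number correlated at −0.21 to −0.02 in 3 pairs, and no WT mouse correlated best with the KO mouse of its own number. Of the lineage and pathway genes that are no members, 59 in the reported fit, 1 was past the threshold without a filter on low counts, *Il18r1* at a log2 fold change of −0.80 (adjusted p = 0.109, edgeR), and 0 otherwise. Of 31 such genes named, 15 changed sign under at least 1 alternative, of which *Ear6* alone had a reported log2 fold change above 0.25 in size. The cause was not tested. For members of few reads, such as *Prg3*, depth limits the precision.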
